A study of Homo sapiens with 18 samples.

Results

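The actin, myosin and titin genes described here were 10 of the 62703 genes in the count tables. ACTA2, TTN, ATP2A1, MYLK and MYH10 were chosen on measured values: in the contrast of the gapmer labels, ACTA2, ATP2A1 and TTN moved against the long non-coding RNA NEAT1 and MYLK and MYH10 moved with it in some lines. ACTB, ACTG1, MYH9, MYL6 and MYL9 were taken beside them as other genes of the same families. The gapmer label contrast of these 10 genes is therefore given as a description, without a test, and tests are given for their levels between the cell lines and for other genes of the same pathways.

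Actins form the filaments of the cytoskeleton, and myosin II moves along them and crosslinks them. A non-muscle myosin II molecule pairs heavy chains, such as those encoded by MYH9 and MYH10, with essential and regulatory light chains, and phosphorylation of the regulatory chain by the kinase encoded by MYLK switches its activity on. Titin is the giant spring protein of the sarcomere of striated muscle, ATP2A1 encodes the calcium pump SERCA1 of fast skeletal muscle, and ACTA2 encodes the actin typical of smooth muscle, so that these genes are textbook muscle genes while ACTB, ACTG1 and MYH9 act in nearly every cell.

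RNA-seq was performed on libraries labelled AMO1, LP1 and H929 (NCI-H929), established human multiple myeloma cell lines, that is, malignant plasma cells grown in culture. Each line took up a gapmer, a short antisense oligonucleotide that directs RNA cleavage, without a transfection reagent (gymnosis) for 48 h. The label gN1E marks libraries treated with the NEAT1 gapmer and SCR marks the control gapmer, and each of the 6 groups of line and gapmer label held 3 libraries, with no other treatment named. The total count per library ranged from 28061606 to 69937229. In the libraries labelled AMO1 the depth moved with the label: those labelled gN1E held 28061606 to 49784737 counts and those labelled SCR 53227560 to 66142827, and the part of this in the results was not tested. The labels do not say that replicates were separate cultures, so p-values measure only the spread between these libraries, which may be technical.

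NEAT1, the target of the gapmer, was examined first. It reached 473, 553 and 517 CPM (counts scaled by depth, here on TMM-scaled library sizes) in the libraries labelled AMO1 gN1E, against 75.7, 78.8 and 90.8 CPM in those labelled AMO1 SCR. In H929 it stood at 554, 464 and 542 CPM with the label gN1E and at 79.8, 72.7 and 79.1 CPM with SCR. In LP1 the values were 656, 667 and 829 CPM for gN1E and 135, 173 and 189 CPM for SCR. NEAT1 was thus high in all 9 libraries labelled with the knock-down gapmer, which goes against the label, and the groups did not overlap in any line. By edgeR's quasi-likelihood test, Benjamini-Hochberg adjusted the log2 fold change of gN1E over SCR was 2.66 ± 0.074 in AMO1 (SE, adjusted p = 5.10e-13), 2.74 ± 0.068 in H929 (adjusted p = 3.11e-14) and 2.14 ± 0.19 in LP1 (adjusted p = 0.0269). The names inside the count tables exchanged the gapmers in all 18 libraries and exchanged LP1 and H929 in 12. The replicate letter in them also differed from the label for LP1 replicate D and H929 replicate C under both gapmers. Groups follow the labels here, so that every direction below is that of libraries labelled gN1E, in which NEAT1 was high. MALAT1, the nuclear RNA encoded next to NEAT1, had a log2 fold change of -0.020 in AMO1, -0.29 in H929 and -0.23 in LP1, with no adjusted p under the threshold of 0.05.

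The line labels were compared with genes that mark myeloma clones. NCI-H929 and LP1 are both known for a translocation that places NSD2 and FGFR3 under immunoglobulin control. NSD2 was at 1416 ± 21.8 CPM (SD, n = 3; of total counts, as are all marker genes) in LP1 SCR, at 230.5 ± 3.11 CPM in H929 SCR and at 176 ± 1.40 CPM in AMO1 SCR. FGFR3 was at 612 ± 46.4 CPM in LP1 SCR and at 1.41 ± 0.102 CPM in H929 SCR. CCND2, a cyclin gene, was at 1875 ± 104 CPM in AMO1 SCR, 1704 ± 88.4 CPM in H929 SCR and 1.33 ± 0.146 CPM in LP1 SCR. The NSD2 and FGFR3 levels in the libraries labelled H929 go against that label. The libraries labelled H929 lay near AMO1 in CCND2, in the IgA heavy chain gene IGHA1 (8589 ± 1005 CPM against 8425 ± 992 CPM in AMO1 SCR) and in the variable segment IGHV3-23 (1854 ± 335 against 1659 ± 103 CPM). They differed from AMO1 in FGFR3 (0.141 ± 0.0563 CPM in AMO1 SCR), in the transcription factor gene MAF (37.5 ± 3.83 against 0.0765 ± 0.0876 CPM) and in IGHG1 (707 ± 56.8 against 1.64 ± 0.380 CPM). The kappa light chain gene IGKC was high under all line labels, at 10619 ± 565 CPM in AMO1 SCR, 9354 ± 760.1 CPM in H929 SCR and 6389 ± 262 CPM in LP1 SCR, where the lambda gene IGLC2 was at 0.710 ± 0.268, 14.2 ± 1.89 and 5.81 ± 0.797 CPM. LP1 is known as a lambda line, so its light chain levels go against that label. Across 15433 genes with a mean of at least 1 CPM, the mean log2 levels of the lines had a Pearson r of 0.964 between AMO1 and H929, 0.826 between H929 and LP1 and 0.781 between AMO1 and LP1, as a description over genes, which are not independent replicates. AMO1 and H929 results below are therefore given side by side and not as separate support.

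Plasma cell markers were present throughout. All 9 of them reached 1 CPM in every library, and their summed level was 16485 to 18703 CPM in AMO1, 19467 to 22292 CPM in H929 and 10386 to 11326 CPM in LP1, led by the surface proteoglycan SDC1 (highest library 15018 CPM) or, in LP1, by JCHAIN (4147 CPM). Of 8 skeletal muscle markers none reached 1 CPM in any library. Their sum stayed between 0.282 and 0.953 CPM, ACTA1 or TNNT3 was the most abundant, and MYOD1, MYOG, MYF5, MYH2 and MYH7 had 0 counts in all 18 libraries. Of 8 smooth muscle markers 2 to 4 reached 1 CPM, and the sum was 23.7 to 30.1 CPM in AMO1, 27.9 to 34.8 CPM in H929 and 60.5 to 71.3 CPM in LP1. Most of that was SMTN, and CNN1 had at most 1 count in a library. In CPM of total counts the sum was lower under gN1E in AMO1, at 23.7 to 25.9 CPM against 27.1 to 30.1 CPM under SCR. In H929 it was 27.9 to 30.8 CPM under gN1E against 32.3 to 34.8 CPM under SCR, and in LP1 the labels overlapped. Fibroblast markers summed to 0.884 to 3.06 CPM with COL1A1 in front, while COL3A1, DCN and LUM had 0 counts in all 18 libraries. Some markers of skeletal muscle and fibroblasts were thus at 0 throughout, and others were not. COL1A1 reached 1.80 CPM, PDGFRB 1.24 CPM and ACTA1 0.720 CPM in their highest libraries. In LP1 the members were no higher than that, with ATP2A1 at 0.365 to 0.588 CPM and ACTA2 at 0.510 to 0.899 CPM (TMM scale). Which cells the reads of TTN, ATP2A1 and ACTA2 came from was not tested.

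Among the actins, ACTB (chr7:5526409-5563902, hg38) and ACTG1 (chr17:81509413-81523847) encode the cytoplasmic forms of nearly every cell. ACTB ranged from 2617 to 3055 CPM in AMO1, from 2554 to 3115 CPM in H929 and from 1875 to 2167 CPM in LP1. For ACTG1 the range was 2362 to 2739 CPM in AMO1, 2031 to 2449 CPM in H929 and 2416 to 2850.5 CPM in LP1. The gapmer labels overlapped in every line for both genes, and the log2 fold changes lay between -0.091 and 0.10. Both genes have many processed pseudogenes with near-identical sequence. The counts left out read pairs that map to several places, and 12 pseudogenes named for ACTB held at most 0.120% of the ACTB count and 21 named for ACTG1 at most 0.463%, so that the levels of both genes carry an uncertainty that these counts do not resolve.

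ACTA2 (ENSG00000107796.13, chr10:88935074-88991339, minus strand) was a low gene, with 21 to 351 counts per library. In AMO1 it stood at 5.84, 4.93 and 5.03 CPM in the libraries labelled SCR and at 2.79, 4.08 and 2.49 CPM in those labelled gN1E. In H929 the values were 5.64, 5.76 and 5.65 CPM under SCR and 3.01, 4.19 and 3.17 CPM under gN1E. In LP1 they were 0.888, 0.623 and 0.899 CPM under SCR and 0.575, 0.510 and 0.548 CPM under gN1E. All gN1E libraries lay below all SCR libraries of their own line, and LP1 lay below the other lines under both labels. In CPM of total counts, the sum of the smooth muscle markers given above was also lower under gN1E in AMO1 and H929, without overlap. It was not taken on the TMM scale used for ACTA2, on which the ranges can differ. SMTN, most of the sum, had log2 fold changes of -0.19 and -0.13 in these lines and did not pass (adjusted p = 0.446 and 0.292 by edgeR). What ties the sum to ACTA2 was not tested. The fold change of gN1E over SCR was -0.77 ± 0.16 in AMO1, -0.73 ± 0.13 in H929 and -0.53 ± 0.27 in LP1 on the log2 scale (± SE), or 1.70-fold, 1.66-fold and 1.45-fold lower. In bulk libraries, fewer cells that express a gene and less RNA per cell cannot be told apart. The order of the group means ran from H929 SCR (5.68 CPM) and AMO1 SCR (5.27 CPM), whose libraries overlapped, through H929 gN1E (3.46 CPM) and AMO1 gN1E (3.12 CPM), which overlapped as well, down to LP1 SCR (0.803 CPM) and LP1 gN1E (0.544 CPM), which did not.

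ACTA2 lies inside a crowded locus. On the opposite strand it overlaps FAS, which encodes a death receptor, the deubiquitinase gene STAMBPL1 and the antisense RNA ACTA2-AS1, and counting was strand-specific, so that these reads were assigned to their own strand. ENSG00000286116 overlaps ACTA2 on the same strand, where read pairs that fit both genes were left out of both, and it ran the same way: its log2 fold changes were -0.84, -0.27 and -0.49 in AMO1, H929 and LP1 (adjusted p = 0.290, 0.645 and 0.797 by edgeR), and its log2 difference from LP1 was 2.17 in AMO1 and 2.71 in H929. FAS averaged 46.1 CPM in AMO1, 44.5 CPM in H929 and 1.96 CPM in LP1, a log2 difference from LP1 of 4.55 in AMO1 (adjusted p = 1.12e-34) and 4.50 in H929 (adjusted p = 2.32e-34) by edgeR's quasi-likelihood test, Benjamini-Hochberg adjusted. FAS was therefore high in the lines in which ACTA2 was high, whereas STAMBPL1 was at 12.0, 12.4 and 13.1 CPM in AMO1, H929 and LP1 and did not pass the threshold against LP1 in either line (adjusted p = 0.0561 and 0.239). ACTA2-AS1, at 1.61, 1.91 and 1.27 CPM, was higher than in LP1 by 0.36 in AMO1 and 0.59 in H929 on the log2 scale (adjusted p = 0.0187 and 0.000185 by edgeR). In the gapmer label contrast FAS had log2 fold changes of -0.11, -0.19 and 0.20 in AMO1, H929 and LP1 and did not pass the threshold in any of them (adjusted p = 0.526, 0.0679 and 0.692).

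Promoter windows of 300 bases, 250 before a gene's start and 50 after it, were taken from RefSeq (GRCh38.p14) to show the sequence at the starts of genes that moved or stayed. Of the members 8 had such a window, 10 windows in all, and ACTB and MYL9 had none. The CArG box, to which serum response factor binds and which is common in muscle and cytoskeletal genes, was searched on both strands. It was found in 454 of all 35116 windows (1.29%) and, among the 10 windows of members, in those of ACTG1 and MYLK. The letters TATAAA, searched on both strands, were in 11.5% of all windows. A window of ACTG1 and the downstream window of ACTA2, which starts 38.6 kb inside the annotated gene, are given as an actin that stayed and an actin that moved, both on the minus strand and read 5′ to 3′, with the CArG box in capitals.
ACTG1, chr17:81512750-81513049: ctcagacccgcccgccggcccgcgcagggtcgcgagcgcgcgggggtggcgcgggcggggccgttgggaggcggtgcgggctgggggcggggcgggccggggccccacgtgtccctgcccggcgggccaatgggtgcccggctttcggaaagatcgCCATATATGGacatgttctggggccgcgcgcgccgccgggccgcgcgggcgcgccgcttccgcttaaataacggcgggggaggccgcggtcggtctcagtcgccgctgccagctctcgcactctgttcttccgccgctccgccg
ACTA2, chr10:88952724-88953023: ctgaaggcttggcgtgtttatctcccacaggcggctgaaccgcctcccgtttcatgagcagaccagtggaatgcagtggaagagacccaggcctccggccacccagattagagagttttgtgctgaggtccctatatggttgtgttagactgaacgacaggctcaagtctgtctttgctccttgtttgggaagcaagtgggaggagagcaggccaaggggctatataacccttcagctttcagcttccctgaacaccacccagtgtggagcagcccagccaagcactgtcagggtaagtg
The box of ACTG1 began 94 bases before the start that RefSeq gives there, 11 kb inside the annotated gene. Neither ACTA2 window held an exact match, which says only that these letters are not in these windows. Near matches were not counted, and the printed ACTA2 window holds ccctatatgg and ccttgtttgg. The search therefore does not set the actin that moved apart from the actin that stayed.

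**Figure D1:**
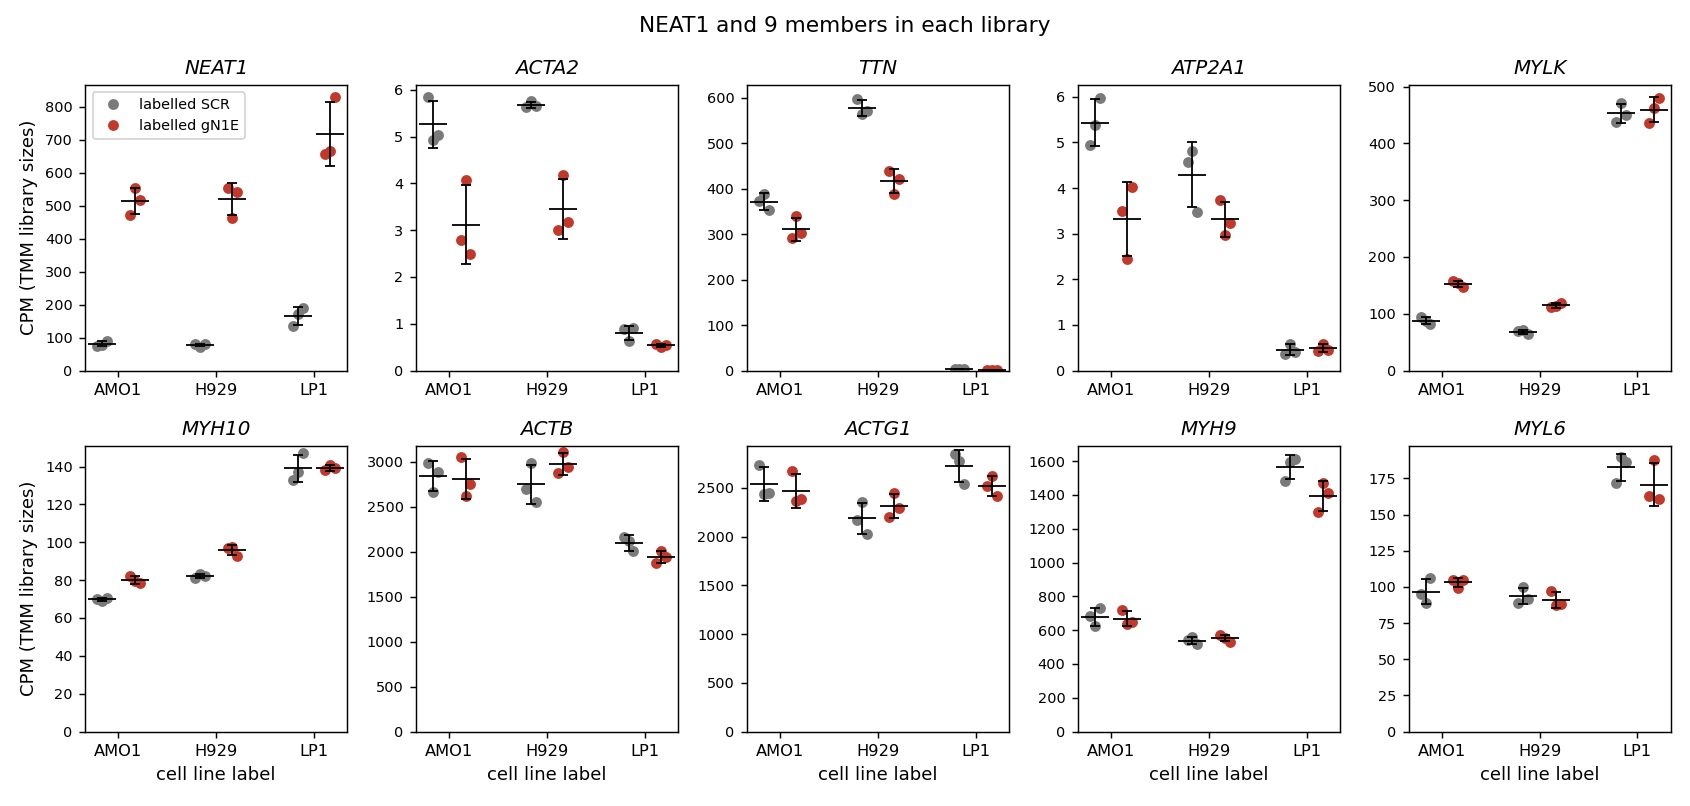
Levels of NEAT1 and 9 members in each of the 18 libraries, in CPM on TMM-scaled library sizes (vertical axis, from 0), by cell line label (horizontal axis); each point is a library, grey for the label SCR and red for gN1E, and the bars give the mean and SD of 3 libraries. NEAT1 is high in all libraries labelled gN1E, ACTA2 and TTN are lower there in every line, MYLK is higher there in AMO1 and H929, and ACTB, ACTG1 and MYL6 overlap between labels.

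The myosin heavy chain genes differed in level and in behaviour. MYH9 (chr22:36281280-36388010), which encodes the heavy chain of non-muscle myosin IIA, ranged from 624 to 730.1 CPM in AMO1, from 519 to 569 CPM in H929 and from 1298 to 1614 CPM in LP1. Its log2 fold change between gapmer labels was -0.020, 0.024 and -0.14 in AMO1, H929 and LP1, and the libraries overlapped in AMO1 and H929 but not in LP1. MYH10 (ENSG00000133026.14, chr17:8474207-8631376), the heavy chain of non-muscle myosin IIB, stood at 69.9, 69.0 and 70.5 CPM in AMO1 SCR and at 82.3, 79.4 and 78.5 CPM in AMO1 gN1E. In H929 it rested at 81.2, 83.2 and 82.2 CPM under SCR and 97.0, 97.7 and 93.0 CPM under gN1E, and in LP1 at 133, 137 and 147 CPM under SCR and 138, 141 and 139 CPM under gN1E. The gN1E libraries of AMO1 and H929 all lay above the SCR libraries of the same line, and the labels overlapped in LP1, where the gene was highest. The step was small: the log2 fold change was 0.20 ± 0.057 in AMO1, 0.21 ± 0.048 in H929 and 0.021 ± 0.050 in LP1 (± SE). NDEL1, on the opposite strand across the end of MYH10, had log2 fold changes of 0.028, -0.013 and 0.0059.

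Of the light chains, MYL6 (chr12:56158346-56163496) encodes the essential chain of non-muscle and smooth muscle myosin. It ranged from 89.1 to 106 CPM in AMO1, from 87.6 to 99.6 CPM in H929 and from 161 to 189.9 CPM in LP1, with log2 fold changes between gapmer labels of 0.10, -0.051 and -0.072 and overlapping libraries in each line. Its neighbour MYL6B overlaps it on the same strand, so that read pairs that fit both genes were left out of both. Pseudogenes named for MYL6 held at most 0.378% of its count. MYL9 (chr20:36541497-36551447), a regulatory light chain of smooth muscle and many adherent cells, was close to absent: it had 1 count in LP1 SCR replicate D, 1 count in H929 gN1E replicate A and 0 in the other 16 libraries. A count of 0 allows up to 3 counts, 0.0429 CPM in the deepest library and 0.107 CPM in the shallowest, and this covers counting error only. MYL9 did not reach 10 counts in any library and was the member left out of every fit. The regulatory light chains that were measured in quantity came from the partner list, MYL12A at 90.2 CPM in AMO1, 78.5 CPM in H929 and 171 CPM in LP1, and MYL12B at 58.8, 54.8 and 56.3 CPM.

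MYLK (ENSG00000065534.20, chr3:123610049-123884332, minus strand) encodes the calmodulin-dependent kinase of the regulatory light chains. In AMO1 it stood at 93.6, 87.6 and 81.8 CPM in the libraries labelled SCR and at 157, 155 and 147 CPM in those labelled gN1E. The H929 values were 69.8, 70.6 and 63.9 CPM under SCR and 112, 113 and 119 CPM under gN1E. In LP1 it was measured at 438, 471 and 449.8 CPM under SCR and at 436, 462 and 481 CPM under gN1E. The labels were far apart in AMO1 and H929 and overlapped in LP1, where every library exceeded every library of the other lines. On the log2 scale gN1E over SCR was 0.81 ± 0.059 in AMO1, 0.74 ± 0.051 in H929 and 0.044 ± 0.050 in LP1 (± SE), or 1.75-fold, 1.67-fold and 1.03-fold. Whether the label contrast of MYLK differs between lines was not tested, since the gene was chosen on that contrast. The antisense gene MYLK-AS1, on the opposite strand, had log2 fold changes of -0.10, -0.059 and 0.16 and did not pass the threshold in any line (adjusted p = 0.821, 0.802 and 0.624 by edgeR's quasi-likelihood test, Benjamini-Hochberg adjusted).

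The RefSeq window of MYLK lies 264 kb inside the annotated gene, near its 3′ end, and carries a CArG box 94 bases before the start that RefSeq gives there, with TATAAA or its reverse complement 2 times beside it. It is printed because MYLK was the member that moved most with NEAT1; the counts do not separate the transcripts of the gene, so nothing here says which start was used.
MYLK, chr3:123620499-123620798: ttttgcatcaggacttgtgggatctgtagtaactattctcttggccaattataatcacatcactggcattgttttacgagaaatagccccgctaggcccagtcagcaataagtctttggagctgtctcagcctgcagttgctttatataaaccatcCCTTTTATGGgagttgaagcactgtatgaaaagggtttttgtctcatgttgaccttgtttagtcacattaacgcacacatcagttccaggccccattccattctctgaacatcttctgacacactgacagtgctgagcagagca
The window is on the minus strand, read 5′ to 3′, and the capitals mark the CArG box.

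TTN (ENSG00000155657.29, chr2:178525989-178830802, minus strand) spans 305 kb and its exons sum to 119 kb, the longest of the members on both scales. In AMO1 it stood at 372, 389 and 352 CPM under the label SCR and at 291, 339.6 and 302 CPM under gN1E. In H929 it was higher, at 598, 565 and 570.4 CPM under SCR and 439, 389 and 422 CPM under gN1E. The libraries labelled LP1 held 2.71, 2.7 and 2.77 CPM under SCR and 1.39, 1.31 and 2.07 CPM under gN1E, from 54 to 171 counts each. All gN1E libraries lay below all SCR libraries of the same line, and the 6 groups followed each other without overlap from H929 SCR down to LP1 gN1E. The log2 fold change was -0.25 ± 0.060 in AMO1, -0.48 ± 0.052 in H929 and -0.76 ± 0.18 in LP1 (± SE), that is 1.19-fold, 1.40-fold and 1.69-fold lower in gN1E. In LP1 this value rested in part on 1 library: without gN1E replicate D it was -0.99.

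Within the span of TTN, 9 genes on the opposite strand had at least 10 reads in a library, and TTN-AS1 was the most abundant of them. Their summed count was 15.8%, 16.5% and 18.6% of that of TTN in AMO1 SCR and 22.9%, 19.9% and 23.5% in AMO1 gN1E. In H929 the share was 7.83%, 8.60% and 8.81% under SCR and 12.6%, 15.3% and 13.3% under gN1E. In LP1, with 33 to 56 antisense counts, it was 28.7%, 28.8% and 31.0% under SCR and 74.7%, 61.1% and 64.4% under gN1E. The antisense share was higher under gN1E in all 3 lines. TTN is its denominator and was chosen because it was lower there, so the share is a description only. TTN-AS1, the most abundant of these genes, did not fall with TTN in any line. TTN-AS1 rose in H929 by 0.25 on the log2 scale (adjusted p = 0.00548, edgeR's quasi-likelihood test, Benjamini-Hochberg adjusted) and had log2 fold changes of 0.18 in AMO1 (adjusted p = 0.254) and 0.40 in LP1 (adjusted p = 0.605). ENSG00000267784, with at most 28 counts, rose in H929 by 1.96 (adjusted p = 0.00585, the same edgeR test). Against LP1 both TTN and TTN-AS1 were higher in AMO1 and H929, whereas between AMO1 and H929 the mean of TTN was higher in H929 and that of TTN-AS1 in AMO1. TTN-AS1 averaged 49.7 CPM in AMO1, 39.8 CPM in H929 and 0.728 CPM in LP1, and its log2 difference from LP1 was 6.09 in AMO1 (adjusted p = 1.35e-35) and 5.77 in H929 (adjusted p = 1.14e-34) by edgeR's quasi-likelihood test, Benjamini-Hochberg adjusted. CCDC141, the next gene on the same strand, which overlaps the 5′ end of TTN, showed the same split, with 28.7 CPM in AMO1, 25.7 CPM in H929 and 0.0565 CPM in LP1. Its gapmer log2 fold changes were -0.15 in AMO1 and -0.19 in H929 (adjusted p = 0.460 and 0.0881 by the same edgeR test).

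The TTN window starts 23.4 kb inside the annotated gene and held neither a CArG box nor TATAAA. It is given as the start of the member with the widest range of levels, on the minus strand and read 5′ to 3′, with no capitals since no motif was found.
TTN, chr2:178807374-178807673: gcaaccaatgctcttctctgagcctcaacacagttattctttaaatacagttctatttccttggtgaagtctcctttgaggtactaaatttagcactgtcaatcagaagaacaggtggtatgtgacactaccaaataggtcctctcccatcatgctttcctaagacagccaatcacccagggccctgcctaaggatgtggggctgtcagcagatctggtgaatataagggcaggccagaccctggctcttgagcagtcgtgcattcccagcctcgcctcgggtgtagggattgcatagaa

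ATP2A1 (ENSG00000196296.14, chr16:28878405-28904466, plus strand) pumps calcium into the sarcoplasmic reticulum as SERCA1 and was as low as ACTA2, with 19 to 384 counts per library. In AMO1 it stood at 4.94, 5.39 and 5.98 CPM under SCR and 3.49, 2.45 and 4.03 CPM under gN1E. In H929 the libraries labelled SCR held 4.58, 4.82 and 3.48 CPM and those labelled gN1E 3.73, 2.98 and 3.24 CPM. LP1 gave 0.365, 0.588 and 0.410 CPM under SCR and 0.426, 0.583 and 0.453 CPM under gN1E. The labels were apart in AMO1 and overlapped in H929, through SCR replicate C, and in LP1. The log2 fold change was -0.70 ± 0.16 in AMO1, -0.39 ± 0.14 in H929 and 0.12 ± 0.33 in LP1 (± SE), and the last value, from 19 to 34 counts per library, moved to 0.34 without SCR replicate B. The SERCA genes of other tissues were far more abundant: ATP2A2 averaged 393 CPM in AMO1, 471 CPM in H929 and 626 CPM in LP1, with gapmer log2 fold changes of 0.056, 0.0064 and -0.0072. ATP2A3, the form of blood cells, averaged 329.6, 349.5 and 254 CPM and had log2 fold changes of -0.15, -0.012 and -0.13. Neither passed the threshold in any line. ATP2A1-AS1 and RABEP2, which overlap the ends of ATP2A1 on the opposite strand, did not pass it either, the lowest adjusted p being 0.0921 for RABEP2 in AMO1 by edgeR's quasi-likelihood test, Benjamini-Hochberg adjusted.

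**Figure D2:**
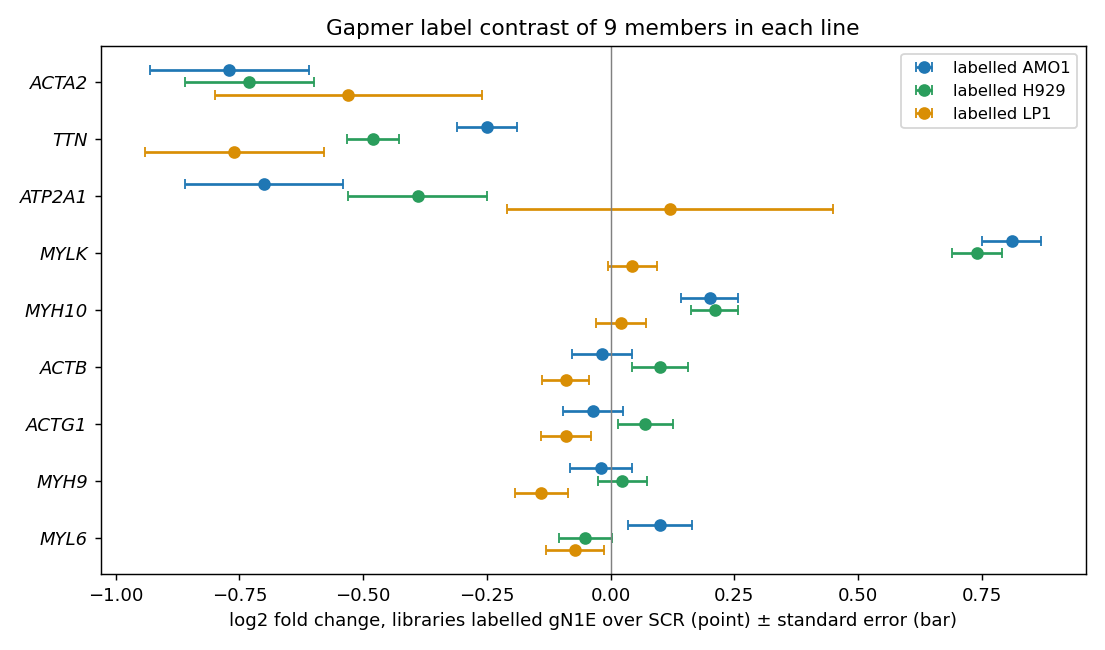
Log2 fold change of libraries labelled gN1E over SCR (horizontal axis) for 9 members (vertical axis) in the lines labelled AMO1, H929 and LP1; points are estimates and bars are standard errors, from 3 libraries per group. ACTA2 and TTN lie below 0 in every line, MYLK reaches 0.81 and 0.74 in AMO1 and H929 and 0.044 in LP1, ATP2A1 lies at -0.70 in AMO1, -0.39 in H929 and 0.12 in LP1, and MYH10, ACTB, ACTG1, MYH9 and MYL6 lie between -0.14 and 0.21.

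Side by side, library size as the only scaling shifted the median of all genes by -0.038 in AMO1, -0.046 in H929 and 0.028 in LP1. In AMO1 and H929 the members chosen for moving had larger changes, so that no scaling could turn their direction. That they kept it is no support. MYH9 in H929 changed sign with the library size alone (-0.023 in place of 0.024). Of all genes, 2.06% were past the threshold of an adjusted p of 0.05 by edgeR in AMO1 (1.64% higher and 0.419% lower in gN1E), 5.47% in H929 (3.70% higher and 1.77% lower) and 1.43% in LP1 (0.656% higher and 0.777% lower). No count of members is set beside these shares, because the members were chosen on this contrast. The gene totals behind the shares were 473 of 22933 in AMO1, 1286 of 23499 in H929 and 332 of 23165 in LP1. The share of called genes that were higher in gN1E was 79.7% in AMO1, 67.7% in H929 and 45.8% in LP1, and with the library size as the only scaling it was 51.2%, 42.8% and 63.8%. In AMO1 residuals of libraries with like replicate letters correlated weakly, at 0.183, 0.150 and 0.119. The labels do not say what the letters mean, so pairing there is possible but not settled. With the letter as a replicate block 1394 genes passed in AMO1. The totals also depended on single libraries: in AMO1 261 genes passed without SCR replicate D, 288 without gN1E replicate C and 254 without gN1E replicate D, and in H929 709 without SCR replicate A and 701 without gN1E replicate B. In LP1 the total was 123, 87 and 780 without SCR replicates A, B and D and 143, 176 and 202 without gN1E replicates A, B and D.

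The reasons given for choosing the members did not include their level between lines, though they were chosen with earlier results of these data known. That level was tested in all 18 libraries together, taking the mean of both gapmer labels in each line. TTN, ATP2A1 and ACTA2 were high in AMO1 and H929 and low in LP1, and MYLK, MYH9, MYL6 and MYH10 were the reverse. TTN averaged 341 ± 38.4 CPM in AMO1, 497 ± 90.3 CPM in H929 and 2.16 ± 0.677 CPM in LP1 (SD, n = 6), a log2 difference from LP1 of 7.35 ± 0.068 in AMO1 and 7.88 ± 0.069 in H929, or 163-fold and 236-fold (± SE; adjusted p = 3.48e-35 and 1.58e-35 by edgeR's quasi-likelihood test, Benjamini-Hochberg adjusted). Only 4.41% and 1.99% of the 26436 genes fitted differed by as much in these comparisons. ATP2A1 was higher than in LP1 by 3.18 ± 0.15 in AMO1 and 3.01 ± 0.15 in H929, and ACTA2 by 2.60 ± 0.14 and 2.74 ± 0.14, on the log2 scale (± SE). For both genes the libraries of LP1 were apart from those of the other lines.

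In the other direction, MYLK averaged 120.5 ± 36.3 CPM in AMO1, 91.4 ± 25.8 CPM in H929 and 456 ± 18.1 CPM in LP1 (SD, n = 6), and its log2 difference from LP1 was -1.98 ± 0.039 and -2.37 ± 0.040 (± SE; adjusted p = 1.59e-30 and 1.85e-32 by edgeR's quasi-likelihood test, Benjamini-Hochberg adjusted). MYH9 differed from LP1 by -1.13 ± 0.041 in AMO1 and -1.44 ± 0.042 in H929. For MYL6 the values were -0.82 ± 0.045 and -0.94 ± 0.045, and for MYH10 -0.89 ± 0.034 and -0.65 ± 0.033. The cytoplasmic actins differed little: ACTB was higher than in LP1 by 0.49 ± 0.042 and 0.50 ± 0.042, and ACTG1 differed by -0.063 ± 0.043 in AMO1, which missed the threshold (adjusted p = 0.183, edgeR as above), and by -0.22 ± 0.043 in H929. With the library size as the only scaling, which moved the median of all genes by 0.18 and 0.19 in the comparisons with LP1, the ACTG1 difference in AMO1 turned to 0.12 and passed the threshold, and that in H929 was -0.028 and did not. With RLE size factors and with DESeq2 the ACTG1 difference in AMO1 was -0.11 and passed in the other direction, as it did, still negative, without AMO1 gN1E replicate A. The ACTG1 difference in H929 was also lost in the libraries labelled gN1E alone.

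Against LP1, 8 of 9 members in AMO1 and 9 of 9 in H929 passed the threshold, but so did 75.9% and 74.6% of all genes, so that passing it says little about the members. Through ACTG1 the count for AMO1 was 9 with RLE size factors, DESeq2 or library size only and without AMO1 gN1E replicate A, and that for H929 was 8 with library size only and in the libraries labelled gN1E alone. With a difference of at least 1 on the log2 scale required as well, 5 of 9 members passed in each comparison (ACTA2, TTN, ATP2A1, MYLK and MYH9), against 41.5% and 38.1% of all genes. With library size only, MYH9 fell short of 1 in AMO1 against LP1 (-0.95). The median size of the log2 difference was 1.13 over the members and 0.820 over all genes in AMO1 against LP1, and 1.44 and 0.739 in H929 against LP1. Between AMO1 and H929, 6 of 9 members passed, against 44.4% of all genes, and 0 of 9 with at least 1 on the log2 scale, against 10.2%. TTN was lower in AMO1 by 0.53 and MYH10 by 0.25, MYLK was higher by 0.39, MYH9 by 0.30, ACTG1 by 0.16 and MYL6 by 0.11, and ACTB, ACTA2 and ATP2A1 did not pass. The MYL6 difference was lost with limma-voom, with DESeq2, with no filter on low counts, in the libraries labelled SCR alone, and without AMO1 SCR replicate A or D, AMO1 gN1E replicate A or D, H929 SCR replicate A or C, or H929 gN1E replicate B or C. That of ACTG1 was lost in the libraries labelled gN1E alone.

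Levels of different genes were compared per length, as CPM per kb of summed exons. In AMO1 ACTB (642 ± 40.5) and ACTG1 (618 ± 39.4) led, far above MYH9 (39.6 ± 2.63), MYL6 (22.6 ± 1.5), MYLK (3.82 ± 1.15), TTN (2.86 ± 0.323), MYH10 (2.29 ± 0.177), ACTA2 (1.41 ± 0.447) and ATP2A1 (0.964 ± 0.288; SD, n = 6 for each). The large CPM of TTN thus came with a per-length level close to that of MYLK and MYH10. In H929 the order was the same except that TTN (4.18 ± 0.759) came before MYLK (2.90 ± 0.817). These ranks take both gapmer labels together, and the order of TTN and MYLK turned with the label in both lines: TTN against MYLK was 3.12 against 2.78 in AMO1 SCR and 2.61 against 4.86 in AMO1 gN1E, and 4.86 against 2.16 in H929 SCR and 3.5 against 3.64 in H929 gN1E (n = 3 each). MYLK against MYH10 turned as well in H929, from 2.16 against 2.51 in SCR to 3.64 against 2.93 in gN1E. In LP1 ACTG1 (647 ± 40.8) led ACTB (459 ± 25.0), followed by MYH9 (86.8 ± 6.86), MYL6 (40.0 ± 2.91), MYLK (14.5 ± 0.575) and MYH10 (4.25 ± 0.135), while ACTA2 (0.226 ± 0.0585), ATP2A1 (0.104 ± 0.0205) and TTN (0.0182 ± 0.00569) closed the list. Neighbours such as ACTB and ACTG1 in AMO1, or MYLK and MYH10 in H929, differed by less than the SD of the first.

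**Figure D3:**
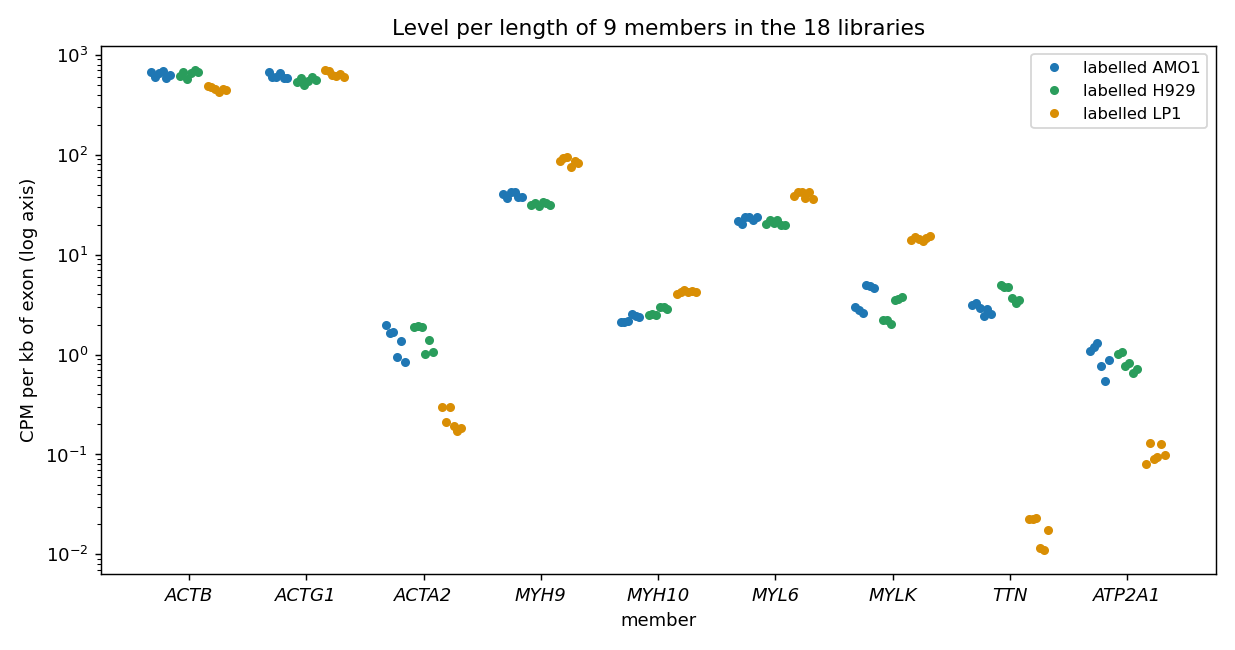
Level per length of 9 members (horizontal axis) in CPM per kb of summed exon length on a log axis (vertical axis), 1 point per library, coloured by the line label, 6 libraries per line. TTN drops from 2.86 and 4.18 in AMO1 and H929 to 0.0182 in LP1, MYLK rises from 3.82 and 2.90 to 14.5, and ACTB and ACTG1 stay the highest in all lines.

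The genes whose pattern was most like that of a chosen member were sought among 11923 named genes over the 18 libraries, after the mean of each line was subtracted from log2(CPM + 0.5). For MYLK they were DOP1B (Pearson r = 0.986), FOXN3 (0.986) and APLP2 (0.982), and for MYH10 STRBP (0.959), HNRNPK (0.957) and SH3KBP1 (0.953). TTN was most like ZNF791 (0.924), TRIM38 (0.922) and PIK3CG (0.894). For ACTA2 they were RETSAT (0.911), APOL2 (0.901) and APOBEC3H (0.891), and for ATP2A1, with the weakest likeness, SNAI1 (0.853), ARL6 (0.824) and LGALS3 (0.820). None of these genes belonged to the pathway lists. These values describe libraries that share the gapmer labels and their depths, and no p is given.

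To place the members among their pathways, 7 lists with 154 other genes were examined in the same contrast of gapmer labels. In AMO1, 4 of 103 fitted list genes rose and 0 fell, in H929 6 of 110 rose and 4 fell, and in LP1 0 of 111 rose and 4 fell. As shares these were 3.88%, 9.09% and 3.60%, beside 2.06%, 5.47% and 1.43% of all genes. The lists were chosen with earlier results of these data known, so the higher shares are a description and no support. The paper counts CIT, ITPR1 and ITPR2 among its targets, picked partly on NEAT1 knock-down in AMO1. Their AMO1 calls below are thus not independent of that choice. The median log2 fold change of the list genes was 0.0087, -0.017 and -0.080 in AMO1, H929 and LP1, against -0.016, -0.0096 and -0.0012 over all genes. With the replicate block in AMO1, 5 list genes were higher and 5 lower. Counts by list and calls of single list genes below come from fits without that block. With the library size as the only scaling, 2 list genes were higher and 1 lower in AMO1. In H929 the balance turned to 4 higher and 6 lower, and in LP1 0 were higher and 1 lower. The LP1 list calls did not hold up well: without SCR replicate D 10 list genes were lower, and without SCR replicate A or B, or gN1E replicate A or B, none was.

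CIT, RDX and ITPR1 rose in both AMO1 and H929. CIT encodes citron kinase, which acts on the myosin of the cleavage furrow. Its mean was 111 ± 1.12 CPM in AMO1 gN1E and 85.1 ± 4.01 CPM in AMO1 SCR, and 96.1 ± 0.425 and 72.6 ± 2.68 CPM in H929 (SD, n = 3), with log2 fold changes of 0.38 ± 0.057 and 0.39 ± 0.049 (± SE; adjusted p = 0.000284 and 2.00e-06 by edgeR's quasi-likelihood test, Benjamini-Hochberg adjusted). All gN1E libraries lay above all SCR libraries in both lines. PPP1CB, the catalytic subunit of myosin phosphatase, fell in H929 by 0.16 (adjusted p = 0.0472 by edgeR). That call was lost in every alternative that left out a library, and with limma-voom.

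In the list of SERCA pumps and calcium stores, 2 of 13 fitted genes were higher in AMO1, and 2 of 14 were higher and 1 lower in H929. Those that rose encode IP3 receptors, calcium release channels of the endoplasmic reticulum. The release channel gene RYR1, chosen after its values were seen, was low, at 0.454 CPM in AMO1 and 0.459 CPM in H929. Its log2 fold changes of -0.57 ± 0.42 and -0.62 ± 0.35 (± SE) did not pass (adjusted p = 0.636 and 0.372 by edgeR). RYR2, at 0.23 in H929, did not pass either (adjusted p = 0.908 by edgeR). These values give no direction for the RYR genes. ITPR1 rose by 0.22 ± 0.050 in AMO1 and 0.27 ± 0.045 in H929 (± SE; adjusted p = 0.0214 and 0.000214), ITPR2 by 0.26 ± 0.058 in AMO1 (adjusted p = 0.0179) and ITPR3 by 0.26 ± 0.051 in H929 (adjusted p = 0.00166), all by edgeR's quasi-likelihood test, Benjamini-Hochberg adjusted. By the same edgeR test ITPR2 in H929 (0.065, adjusted p = 0.548) and ITPR3 in AMO1 (0.082, adjusted p = 0.663) did not pass. In LP1 none of ITPR1, ITPR2 and ITPR3 passed (adjusted p = 0.186, 0.885 and 0.406, edgeR). The AMO1 calls of ITPR1 and ITPR2 were lost with the library size as the only scaling, without SCR replicate D, without gN1E replicate C or D, and when a 1.5-fold change was required. ORAI3, a calcium channel of the plasma membrane, fell in H929 by 0.51, from 4.97 ± 0.154 to 3.52 ± 0.290 CPM (SD, n = 3; adjusted p = 0.00892 by edgeR), a call lost without gN1E replicate A. In LP1, 1 of 15 genes passed: ORAI2 fell by 0.24 (adjusted p = 0.0289 by edgeR), a call lost without SCR replicate A or B or gN1E replicate A, B or D. Per length the list was led in every line by CALR, the calcium-binding chaperone calreticulin, at 360.0, 467 and 521 CPM per kb in AMO1, H929 and LP1.

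In the list of actin filament assembly, RDX, which encodes the membrane linker radixin, rose by 0.28 ± 0.056 in AMO1 and 0.20 ± 0.051 in H929 (± SE; adjusted p = 0.00622 and 0.0177 by edgeR's quasi-likelihood test, Benjamini-Hochberg adjusted). It was the 1 call among 35 genes in AMO1, and it was lost there without gN1E replicate C or D and in H929 without SCR replicate A or B or gN1E replicate A or B. Among 36 genes in H929, the formin gene DIAPH2 rose by 0.40 (adjusted p = 0.000266 by edgeR), profilin PFN1 by 0.17 (adjusted p = 0.0465 by edgeR), and the filament-severing destrin gene DSTN fell by 0.20 (adjusted p = 0.0241 by edgeR). In LP1 MSN, which encodes moesin, a relative of radixin, fell by 0.20 (adjusted p = 0.0418 by edgeR). TMSB10, an actin monomer binder, led the list per length at 2118, 1584 and 671 CPM per kb in AMO1, H929 and LP1. The PFN1, DSTN and MSN calls were each lost in most alternatives that left out a library.

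Titin's partners in the sarcomere were mostly silent, as 13 of 41 genes of the list of sarcomere and smooth muscle filaments could be fitted in AMO1 and 14 in H929 and LP1, and 8, 7 and 8 genes had a mean of at least 1 CPM. MYBPC2, a myosin-binding protein of fast muscle and the list's leading gene per length (8.31, 11.4 and 2.53 CPM per kb in AMO1, H929 and LP1), fell in H929 by 0.30 ± 0.054 (± SE), from 46.6 ± 1.99 to 38.2 ± 0.525 CPM (SD, n = 3; adjusted p = 0.000515 by edgeR's quasi-likelihood test, Benjamini-Hochberg adjusted). It was the 1 call of the list in H929. MYOM2, an M-band protein, fell in LP1 by 0.39 (adjusted p = 0.0368 by edgeR), which was lost with limma-voom and without SCR replicate A, B or D or gN1E replicate A or B. No gene passed in AMO1 in the fit without the replicate block. Between lines, 17 genes of the list were fitted. Of these, 6 were higher and 3 lower in AMO1 than in LP1, and 8 were higher and 6 lower in H929 than in LP1. Some of them entered only through the lines where they were high. CSRP3 and MYOM3 were not fitted within AMO1 or H929, and TNNT1 was not fitted within LP1. The direction of such genes was set by the filter, so the counts are a description and give no direction for the list.

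The other lists held no call in this contrast in the fits without the replicate block. Which lists hold the genes that were lower in AMO1 with the block is not given here. Of the list of serum response factor (SRF), its cofactors and its targets, 16 of 23 genes were fitted in AMO1 and LP1 and 17 in H929, with medians of -0.016, 0.027 and -0.11, led per length by TAGLN2 (273, 318 and 500.0 CPM per kb). Of 5 partners of non-muscle myosin II, 4, 4 and 5 were fitted, with medians of -0.029, -0.063 and -0.053, MYL12B leading per length in AMO1 and H929 (33.8 and 31.5 CPM per kb) and MYL12A in LP1 (56.3 CPM per kb). Of 3 other muscle actins ACTA1 alone could be fitted, at 0.118, 0.208 and 0.231 CPM per kb. Between lines, 92 of 115 list genes passed for AMO1 against LP1 (37 higher, 55 lower), 99 for H929 against LP1 (42 higher, 57 lower) and 75 for AMO1 against H929 (34 higher, 41 lower), which is 80.0%, 86.1% and 65.2% beside the 75.9%, 74.6% and 44.4% of all genes given above. Within AMO1, H929 and LP1, 103, 110 and 111 list genes were fitted. Some, such as PLS3, which was not fitted within AMO1, thus entered only through the lines where they were high. Their direction was set by the filter, which was the same for all genes, and the counts are a description.

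Whether the label contrast of a list gene differed between lines was tested in the joint fit. Against LP1, 4 of 115 list genes differed in AMO1 and 2 in H929, where 0.741% and 0.874% of all 26436 genes did. Since the lists were chosen with earlier results of these data known, these counts are a description. CIT responded more in AMO1 by 0.31 ± 0.070 and more in H929 by 0.34 ± 0.070 than in LP1 on the log2 scale (± SE; adjusted p = 0.0193 and 0.00750 by edgeR's quasi-likelihood test, Benjamini-Hochberg adjusted). MYOM2 differed by 0.67 ± 0.13 and 0.58 ± 0.13 in the same comparisons (adjusted p = 0.00826 and 0.0177 by edgeR). In AMO1, LCP1, which encodes the actin bundler L-plastin, and the ARP2/3 subunit gene ARPC2 also differed from LP1, by 0.59 ± 0.13 and 0.26 ± 0.063 (adjusted p = 0.0328 and 0.0315 by edgeR). LCP1 had a mean of 628 CPM in AMO1 and 4.35 CPM in LP1. With the library size as the only scaling, the CIT, LCP1 and ARPC2 differences and that of MYOM2 in H929 no longer passed, and 1 list gene passed for AMO1 and 0 for H929. The MYOM2 difference between AMO1 and LP1 passed in every alternative run. That of CIT in AMO1 was also lost without AMO1 SCR replicate A, AMO1 gN1E replicate D, LP1 SCR replicate B or LP1 gN1E replicate B, and that of MYOM2 in H929 with limma-voom and without H929 SCR replicate C, H929 gN1E replicate B or LP1 gN1E replicate A or B. Those of LCP1 and ARPC2 were lost in most alternatives that left out a library of AMO1 or LP1, and that of LCP1 also with limma-voom. Between AMO1 and H929, 0 genes of all fitted differed (0%) by edgeR, with 1771 at an unadjusted p under 0.05, 0 by limma-voom and 5 by DESeq2.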

How the data were processed

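RNA-seq counts of 18 libraries (3 per line and gapmer label, 28061606 to 69937229 counts each) were read pairs per gene that the authors made with STAR 2.7.10a and featureCounts 1.6.4 on hg38 and GENCODE release 43, by strand, leaving out multi-mapping pairs, as deposited and per the file headers. Groups and replicate letters follow the labels. Genes with at least 10 counts in at least 1 library were fitted with edgeR 4.0.16 (R 4.3.3, TMM, robust quasi-likelihood, Benjamini-Hochberg over all genes, threshold 0.05), per line for gapmer labels and jointly for differences between lines, and an SE is the log2 fold change over the root of F. The fits were tested on simulated data, where 95.5% to 99.5% of genes changed 2-fold were recovered for the gapmer labels and 3.40% to 5.91% of calls were false. Only well-counted genes were changed there, so these rates do not cover smaller changes or genes with low counts. Replicate letters were checked for pairing: residuals of like letters correlated at 0.183, 0.150 and 0.119 in AMO1 and at 0.174 or below in LP1 and H929, where some correlations were negative. The labels do not say what the letters mean, and the main fits leave them out. Alternatives were limma-voom (limma 3.58.1), DESeq2 1.42.0, other scalings, filters and thresholds, the replicate block, a joint fit, contrasts within 1 label, and leaving out each library. Members and pathway lists were chosen with earlier results of these data known. List genes named for the gapmer labels were past the threshold at a mean of at least 1 CPM (up to 4 per direction) or the most abundant of a list, and not all such genes are named; overlapping genes needed 10 reads. Members were fitted with all genes, but no p of theirs is given between gapmer labels, since they were chosen on them.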

Additional observations from a re-analysis of the deposited data

Results flagged for a closer look

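The response of some pathway list genes to the gapmer label differed between lines, by the interaction term of the joint edgeR fit. Between AMO1 and LP1 the log2 fold change of gN1E over SCR differed by 0.26 for ARPC2, 0.31 for CIT, 0.59 for LCP1 and 0.67 for MYOM2. Between H929 and LP1 it differed by 0.34 for CIT and 0.58 for MYOM2. In the joint fit CIT had 0.38 in AMO1, 0.40 in H929 and 0.069 in LP1, and MYOM2 0.26, 0.17 and -0.41. LCP1 had 0.090 in AMO1 and -0.50 in LP1, and ARPC2 0.11 and -0.16. With the library size as the only scaling, 1 list gene differed between AMO1 and LP1 and 0 between H929 and LP1. The causes of these differences were not tested. Groups of 3 libraries were too small for a search for libraries far from the others.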

How the results depend on the processing

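The counts of genes past the threshold in the gapmer label contrast, 473 in AMO1, 1286 in H929 and 332 in LP1, depended on the settings. In AMO1 they were 808 with no filter on low counts and 176 when a 1.5-fold change and an adjusted p under 0.1 were required. In H929 the latter gave 369. In LP1 the count was 512 with DESeq2, 700 with no filter and 102 at 0.1 with 1.5-fold. With the replicate block it was 1394 in AMO1, 931 in H929 and 243 in LP1.

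Of the pathway list genes in AMO1, 2 were higher and 1 lower with library size only, 3 lower with no filter, 5 lower with the replicate block, and 0 higher at 0.1 with 1.5-fold. In H929, 4 were higher and 6 lower with library size only, 2 were lower with the replicate block, and 0 were higher and 0 lower at 0.1 with 1.5-fold. In LP1 the number lower was 9 with DESeq2, 2 with a filter of 1 CPM, 7 in the joint fit, 1 with library size only, 2 with limma-voom, 10 with no filter, 2 with the replicate block and 0 at 0.1 with 1.5-fold.

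The alternatives for the interactions were chosen after seeing the data. AMO1 against H929 gave 5 genes with DESeq2 and 48 with no filter, in place of 0. AMO1 against LP1 gave 521 genes and 10 list genes with DESeq2 and 1 list gene with library size only. H929 against LP1 gave 383 genes and 6 list genes with DESeq2, 368 genes and 5 list genes with no filter, 0 list genes with library size only and 5 with the replicate block.

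Leaving out 1 library at a time gave 254 to 606 genes in AMO1 (list genes 1 to 4 higher, 0 to 2 lower), 701 to 1272 in H929 (4 to 7 higher, 2 to 3 lower) and 87 to 780 in LP1 (0 higher, 0 to 10 lower). A group left with 2 libraries shares the spread of the others. The counts moved most without these libraries: in AMO1 261 without SCR D, 288 without gN1E C and 254 without gN1E D, in H929 709 without SCR A and 701 without gN1E B, and in LP1 123, 87 and 780 without SCR A, B and D and 143, 176 and 202 without gN1E A, B and D. For the interactions the ranges were 0 to 5 genes for AMO1 against H929 (5 without AMO1 SCR C or gN1E A), 122 to 218 genes and 1 to 4 list genes for AMO1 against LP1 (122 without AMO1 SCR D), and 140 to 284 genes and 1 to 4 list genes for H929 against LP1 (153 without H929 SCR A, 140 without H929 gN1E B, 151 without LP1 SCR A). Differences between lines stayed within 1.5 times: 11027 to 11846 genes for AMO1 against H929, 19637 to 20054 for AMO1 against LP1 and 19234 to 19767 for H929 against LP1.

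Requiring 1 on the log2 scale left 2699 genes and 0 members for AMO1 against H929, 10964 genes and 5 members for AMO1 against LP1, and 10071 genes and 5 members for H929 against LP1. With library size only, MYH9 fell short of 1 for AMO1 against LP1 (-0.95). The ACTG1 difference between AMO1 and LP1 (-0.063, not past the threshold) reversed to 0.12 with library size only and was -0.11 with RLE size factors and with DESeq2, past the threshold in all 3, and it also passed, still negative, without AMO1 gN1E replicate A. The members' gapmer log2 fold changes gave 27 results in 376 refits, of which 371 stayed within 1 SD and 5 moved: MYH10 with library size only (0.16 in AMO1 and in H929), and in LP1 ACTA2 (-0.69) and ATP2A1 (0.34) without SCR B and TTN (-0.99) without gN1E D. Of the tested single genes, 182 of 270 refits kept their call between gapmer labels and 88 lost it, 116 of 150 kept it and 34 lost it in the interactions, and 724 of 756 kept their side of the threshold between lines. With library size only, 23 levels per length stayed within 1 SD and 7 moved. The causes were not tested. With 19 to 34 counts per library for ATP2A1 in LP1, depth limits what can be said of it.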
